A study of Mus musculus with 16 samples.

Results

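The collagen chain genes encode the alpha chains from which collagens, the main structural proteins of the extracellular matrix, are built. They were taken by name, as every gene of the polyA read tables whose symbol is Col, a number, the letter a and a number. This gave 44 of 43627 genes, which belong to 27 numbered collagen types. Of the 44 genes, 37 were also listed in the authors' table of FPKM (fragments scaled to transcript length and library size), which is a level per length of transcript. The other 7, Col4a3, Col4a5, Col4a6, Col9a1, Col10a1, Col13a1 and Col25a1, are given in reads only.

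A collagen molecule is a trimer of alpha chains wound around each other, and the chains of a trimer come from 1 gene or from several genes. Fibrillar collagens such as type I give tissues their tensile strength, type IV collagens form the sheets of basement membranes, and type VI collagens form beaded filaments close to the cell surface. In the fetal liver, stromal cells lay down matrix on which blood-forming cells settle, and collagen mRNA is translated at the endoplasmic reticulum, from which the chains are secreted.

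RNA was measured in exosomes, which are small vesicles that cells release, and in the cells themselves, for AFT024 and BFC012. Both are stromal lines derived from fetal livers of C57BL/6 mice at 14.5 dpc (days post coitum). By their labels AFT024 is supportive of HSPC, the stem and progenitor cells of blood, and BFC012 is non-supportive. Each kind is 1 line, so support and any other property of a line cannot be told apart. The 4 polyA groups were the exosomes of AFT024 and of BFC012 and the cells of AFT024 and of BFC012, with 2 technical sequencing replicates each that the authors merged, and exosomal RNA came from pooled extractions. The deposited tables therefore hold 1 merged value per group, no spread between replicates is known for any difference below, and p-values were not computed.

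AFT024 exosomes had 9038471 reads, BFC012 exosomes 16344350, AFT024 cells 39385534 and BFC012 cells 35874383. For a gene with 0 reads the floor was 3 reads, which equals 0.332, 0.184, 0.0762 and 0.0836 RPM (reads scaled to a common library size) in that order. Read ratios were scaled with median-of-ratios size factors, and each is followed in brackets by its exact Clopper-Pearson 95% interval. The intervals, like the floor, cover counting error only. A ratio was taken where a gene averaged 1 RPM or more in the pair, and a gene was called higher or lower at 2-fold or more. In such bulk samples, fewer cells or vesicles that hold an RNA and less of that RNA in each cannot be told apart.

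The labelled cell type was checked with marker lists. Mesenchymal stromal markers other than collagens summed to 1910 RPM in AFT024 exosomes, 1080 in BFC012 exosomes, 3470 in AFT024 cells and 2200 in BFC012 cells, although Thy1 had at most 1 read and Meox2 had 0 reads in every group. Vim made up most of each sum, with 1070, 717, 2590 and 1580 RPM in that order. Between the cells, 2 of 8 with a ratio, Pdgfrb and S100a4, were higher in AFT024 and 2 lower, where 9.94% of all genes were higher and 7.58% lower. The lower ones were Nt5e, with 1.7 RPM in AFT024 cells against 106 in BFC012 cells, and Eng, with 2.56 against 45.2. Of the other lists, the mesothelial one differed between the lines. It summed to 60.2 RPM in AFT024 exosomes, 139 in BFC012 exosomes, 94.2 in AFT024 cells and 662 in BFC012 cells. All 6 of its genes reached 1 RPM in both BFC012 groups, against 1 gene, Msln, in both AFT024 groups. Msln was higher in AFT024, with 59.2 RPM in AFT024 exosomes against 1.77 in BFC012 exosomes and 93.9 RPM in AFT024 cells against 40.9 in BFC012 cells, while the other 5 markers were lower in AFT024 cells. Hepatoblast, epithelial, hematopoietic and endothelial markers summed to between 0.381 and 121 RPM, and most of the hematopoietic sum was Cd34, while the pan-leukocyte gene Ptprc had 1 or 2 reads in every group. Hepatoblast markers summed to 0.664 RPM in AFT024 exosomes, 14.6 in BFC012 exosomes, 0.381 in AFT024 cells and 33.8 in BFC012 cells. Epithelial markers summed to 5.97, 8.02, 1.35 and 24.5 RPM in the same order of groups. Endothelial markers summed to 7.3, 32.2, 22.6 and 93.5 RPM. Most of this was Flt1, with 6.31, 31.1, 21.8 and 92.8 RPM, and no other endothelial marker reached 1 RPM in any group. Of the hepatoblast and of the epithelial list, 2 genes each reached 1 RPM in BFC012 cells, against 0 in AFT024 cells. The part of other cell types in the collagen results was not tested.

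Collagen genes were a visible share of the cells' mRNA reads and a small share of the exosomes' reads. They took 0.0782% of reads in AFT024 exosomes (0.0764 to 0.0801), 0.0659% in BFC012 exosomes (0.0647 to 0.0672), 0.898% in AFT024 cells (0.895 to 0.901) and 0.557% in BFC012 cells (0.554 to 0.559). The share was 11.5-fold lower in AFT024 exosomes than in AFT024 cells and 8.44-fold lower in BFC012 exosomes than in BFC012 cells. Between the lines it was 1.61-fold higher in AFT024 than in BFC012 cells and 1.19-fold higher in AFT024 than in BFC012 exosomes. As a share of summed FPKM it was 0.0119% in AFT024 exosomes and 0.0142% in BFC012 exosomes. The side of the difference between exosomes thus depended on the unit. Summed over the 37 genes with FPKM, collagens stood at 86.7 FPKM in AFT024 exosomes, 83.7 in BFC012 exosomes, 1280 in AFT024 cells and 912 in BFC012 cells. Thus 2 genes reached 10 FPKM in each exosome group, against 13 in AFT024 cells and 9 in BFC012 cells.

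**Figure D1:**
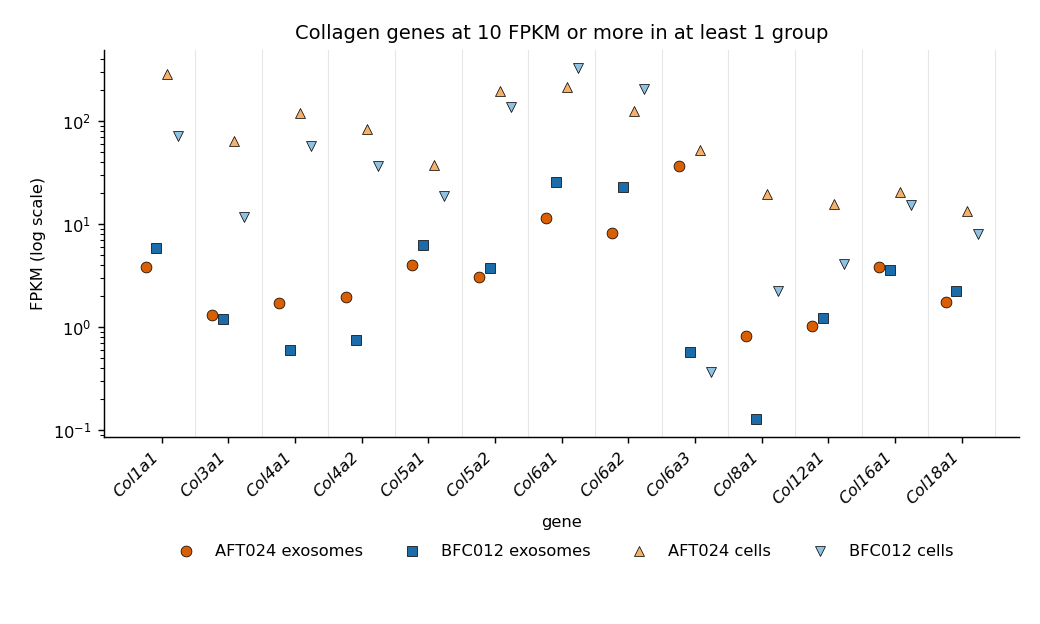
FPKM on a log scale of the 13 collagen genes that reached 10 FPKM in at least 1 group, with 1 point per group (1 merged value each, no error bar). Every gene lies lower in the exosomes than in the cells of its line, except Col6a3 in BFC012, which stood at 0.576 FPKM in exosomes and 0.371 in cells.

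The chains that led differed by line and by source. By FPKM, the order in AFT024 cells began with Col1a1, Col6a1, Col5a2 and Col6a2, and in BFC012 cells with Col6a1, Col6a2, Col5a2 and Col1a1. In AFT024 exosomes Col6a3 came first, followed by Col6a1, Col6a2 and Col5a1, and in BFC012 exosomes the order began with Col6a1, Col6a2, Col5a1 and Col1a1. By reads, Col6a3 alone made up 28.3% of the collagen reads of AFT024 exosomes, Col6a1 26.5% of those of BFC012 exosomes, Col1a1 22.3% of those of AFT024 cells and Col6a1 28.9% of those of BFC012 cells. In the deposited mm10 coordinates, Col1a1 lies at chr11:94936224-94953042, Col6a3 at chr1:90765923-90843971, and Col3a1 (chr1:45311538-45349706) beside Col5a2 (chr1:45374321-45503282). Col6a1 (chr10:76708792-76726168) and Col6a2 (chr10:76595762-76623630) also lie near each other. Neighbours in these orders of level cannot be tested for a difference, since each group is 1 value.

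By class of chain, beaded filament chains (type VI) took 51.5% of collagen reads in AFT024 exosomes, 51.7% in BFC012 exosomes, 24.3% in AFT024 cells and 46.5% in BFC012 cells. Fibrillar chains took 29% in AFT024 exosomes, 35.3% in BFC012 exosomes, 49.9% in AFT024 cells and 33.8% in BFC012 cells. Type IV chains, which build basement membranes, took 8.75% in AFT024 exosomes, 3.13% in BFC012 exosomes, 19.1% in AFT024 cells and 16.1% in BFC012 cells. Type IV was thus a smaller part of the collagen reads in the exosomes of both lines, while type VI was the largest class in both exosome groups and in BFC012 cells and fibrillar chains the largest in AFT024 cells.

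**Figure D2:**
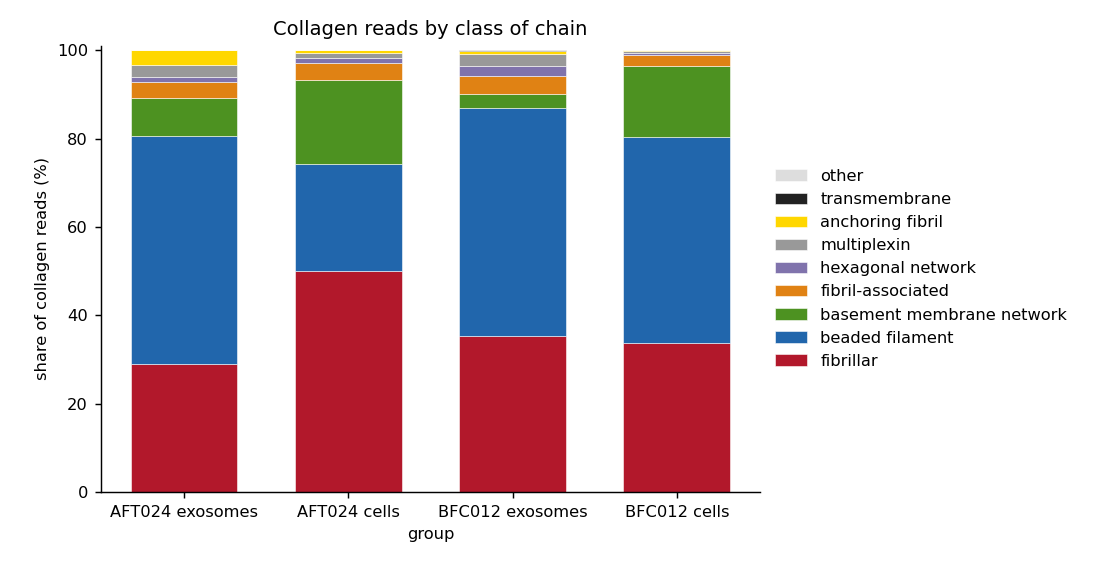
Share of collagen reads (%) by class of chain in each group, as stacked bars that start at 0. Basement membrane chains made up 8.75% in AFT024 exosomes against 19.1% in AFT024 cells, and 3.13% in BFC012 exosomes against 16.1% in BFC012 cells.

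Exosomes were set against the cells of the same line to ask which cellular transcripts the vesicles carry. In AFT024, 23 collagen genes had a ratio, of which 2 were higher in exosomes and 18 lower, where 21.3% of all 12082 genes were higher and 27.9% lower. In BFC012, 20 had a ratio, of which 4 were higher in exosomes and 13 lower, where 23% of all 11871 genes were higher and 26.5% lower. The median log2 read ratio was -2.51 over the collagen genes and -0.25 over all genes in AFT024, and -2.31 against -0.12 in BFC012. A ratio under 0.05 was found for 4 of the 23 collagen genes (17.4%) and 0.621% of all genes in AFT024, and for 3 of the 20 (15%) and 0.446% of all genes in BFC012. With scaling by library size, which moved the median of all genes to -0.67 in AFT024 and -0.62 in BFC012, 1 collagen gene was higher and 21 lower in AFT024, where 1833 of all genes were higher and 4785 lower, against 2570 and 3367 with size factors. In BFC012 it gave 4 higher and 14 lower collagen genes, with 1760 of all genes higher and 4680 lower, against 2734 and 3141. The directions below are relative to each pair's size factors, and the AFT024 or BFC012 ratio of a gene is that of exosomes over cells in the line.

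**Figure D3:**
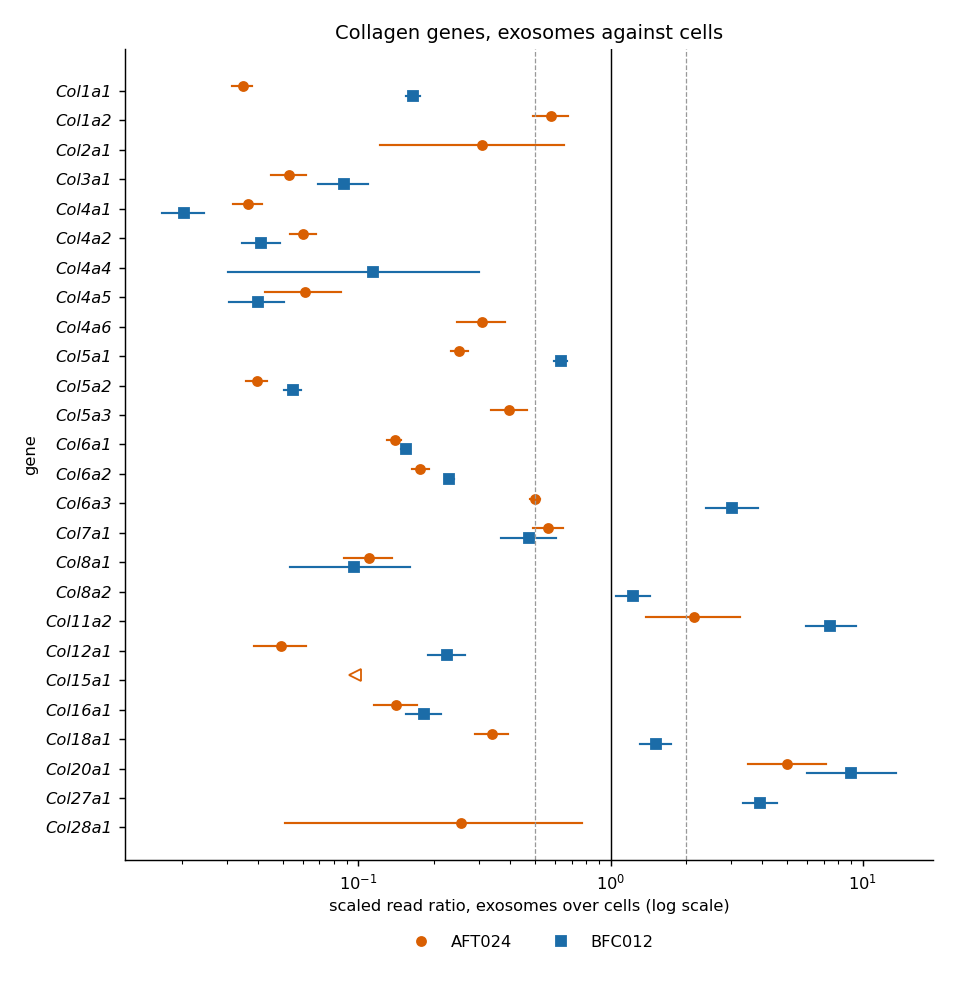
Scaled read ratio of exosomes over cells (log scale) for the 26 collagen genes with a ratio in at least 1 comparison of exosomes with cells, in AFT024 (circles) and BFC012 (squares), with exact 95% intervals of counting error. The solid line marks a ratio of 1, dashed lines mark 2-fold, and the open triangle is the bound for Col15a1, which had 0 reads in AFT024 exosomes. Most points lie left of the lower dashed line, and Col11a2 and Col20a1 lie right of the upper one in both lines.

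Among fibrillar chains, Col1a1, which encodes the major chain of type I collagen, had 470 reads in AFT024 exosomes and 969 in BFC012 exosomes, against 79061 in AFT024 cells and 18230 in BFC012 cells. Its AFT024 ratio was 0.0347 (0.0316 to 0.038) and its BFC012 ratio 0.165 (0.155 to 0.176), so it was lower in both, and the 2 intervals lay apart. Col3a1, the chain of type III collagen, had 152 reads in AFT024 exosomes and 79 in BFC012 exosomes, against 16746 in AFT024 cells and 2811 in BFC012 cells. Its ratios were 0.053 (0.0448 to 0.0621) and 0.0873 (0.0689 to 0.109) in the same order of lines. Thus the mRNAs of both abundant interstitial collagens were more than 5-fold lower in the exosomes.

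Type V collagen is a minor fibrillar collagen that limits fibril width, and its chain genes differed from each other. Col5a2 had 417 reads in AFT024 exosomes and 691 in BFC012 exosomes, against 61535 in AFT024 cells and 39138 in BFC012 cells, and its AFT024 ratio was 0.0395 (0.0358 to 0.0435) and its BFC012 ratio 0.0549 (0.0508 to 0.0592). Col5a1 had 638 reads in AFT024 exosomes and 1377 in BFC012 exosomes, against 14804 in AFT024 cells and 6731 in BFC012 cells, and its AFT024 ratio was 0.251 (0.232 to 0.272) and its BFC012 ratio 0.636 (0.599 to 0.674). Col5a2 was therefore lower by over 10-fold in both lines, while Col5a1 was lower in AFT024 and within 2-fold in BFC012. Col5a3 had 153 reads in AFT024 exosomes and 2246 in AFT024 cells, with a ratio of 0.397 (0.335 to 0.468), and in BFC012 it had too few reads for a ratio.

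The partner chain of type I collagen, Col1a2, did not follow Col1a1. It had 171 reads in AFT024 exosomes and 1717 in AFT024 cells, with a ratio of 0.581 (0.494 to 0.68), and 5 reads in BFC012 exosomes and 12 in BFC012 cells, too few for a ratio. Col2a1, the chain of cartilage type II collagen, had 7 reads in AFT024 exosomes and 132 in AFT024 cells, with a ratio of 0.309 (0.122 to 0.655).

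Col11a2 and Col27a1, fibrillar chains best known from cartilage, stood on the other side. Col11a2 had 32 reads in AFT024 exosomes and 261 in BFC012 exosomes, against 87 in AFT024 cells and 109 in BFC012 cells. Its AFT024 ratio was 2.15 (1.38 to 3.25) and its BFC012 ratio 7.44 (5.93 to 9.39), so it was higher in the exosomes of both lines, though in AFT024 the interval held 2-fold. The AFT024 call also depended on the scale. The log2 ratio was 1.10 with size factors, 0.93 with TMM scaling and 0.68 with library size scaling. With FPKM plus 1 it was -0.03, at 0.262 FPKM in AFT024 exosomes against 0.293 in AFT024 cells. On that scale the median of the 13266 genes that averaged 1 FPKM was -1.30. Relative to the median gene, the FPKM ratio of Col11a2 in AFT024 was 1.07 of its read ratio. In BFC012 its FPKM ratio was 1.89, which relative to the median gene was 0.503 of the read ratio. Its BFC012 log2 ratio with FPKM plus 1 was 0.49, where the median of all genes was -0.95. The size of the BFC012 ratio thus also depended on the scale. Col27a1 had 389 reads in BFC012 exosomes and 309 in BFC012 cells, with a ratio of 3.91 (3.36 to 4.56), while AFT024 had 8 reads in exosomes and 27 in cells. Among the fibrillar chains, higher ratios in exosomes were thus seen for genes of low level, the highest of which was Col27a1 with 2.40 FPKM in BFC012 exosomes.

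The basement membrane chains with a ratio were lower in exosomes. Col4a1, 1 of the 2 chains of the common type IV collagen, had 230 reads in AFT024 exosomes and 106 in BFC012 exosomes, against 36772 in AFT024 cells and 16256 in BFC012 cells. Its ratio of 0.0365 (0.0319 to 0.0415) in AFT024 and 0.0203 (0.0166 to 0.0245) in BFC012 was, in BFC012, the lowest among collagen genes with a ratio. Its partner Col4a2 had 268 and 140 reads in the exosomes of AFT024 and BFC012, against 25922 and 10563 in the cells, with ratios of 0.0603 (0.0533 to 0.068) and 0.0412 (0.0346 to 0.0487). These 2 genes were, of the 17 genes with a ratio in both lines, those whose interval lay higher in AFT024 than in BFC012. Col4a5 had 35 reads in AFT024 exosomes and 67 in BFC012 exosomes, against 3330 in AFT024 cells and 5232 in BFC012 cells, with ratios of 0.0613 (0.0426 to 0.0855) and 0.0398 (0.0308 to 0.0506). Col4a6 was less reduced, with 86 reads in AFT024 exosomes and 1629 in AFT024 cells and a ratio of 0.308 (0.245 to 0.383). In BFC012, where it was under the level filter, it had 18 reads in exosomes against 24 in cells. Col4a4 had 4 reads in BFC012 exosomes and 109 in BFC012 cells, with a ratio of 0.114 (0.0305 to 0.3).

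Within type VI collagen, whose trimers join the products of Col6a1, Col6a2 and Col6a3 in textbook accounts, the Col6a3 chain stood apart. Col6a1 had 952 reads in AFT024 exosomes and 2852 in BFC012 exosomes, against 40039 in AFT024 cells and 57716 in BFC012 cells, and its ratios of 0.139 (0.13 to 0.148) in AFT024 and 0.154 (0.148 to 0.159) in BFC012 overlapped in their intervals. Col6a2 had 690 reads in AFT024 exosomes and 2580 in BFC012 exosomes, against 22904 in AFT024 cells and 34935 in BFC012 cells, with ratios of 0.176 (0.163 to 0.19) and 0.229 (0.22 to 0.239). Col6a3 had 1998 reads in AFT024 exosomes and 141 in BFC012 exosomes, against 23152 in AFT024 cells and 144 in BFC012 cells. Its AFT024 ratio was 0.503 (0.481 to 0.527) and its BFC012 ratio 3.04 (2.39 to 3.86). Col6a3 was thus the type VI chain least reduced in AFT024 exosomes, and in BFC012 it was higher in exosomes at a level of 0.576 FPKM.

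The anchoring fibril chain Col7a1, which fastens basement membranes to the tissue beneath, had 237 reads in AFT024 exosomes and 74 in BFC012 exosomes, against 2446 in AFT024 cells and 484 in BFC012 cells. Its AFT024 ratio was 0.565 (0.493 to 0.646) and its BFC012 ratio 0.475 (0.367 to 0.608), on either side of the 2-fold limit with overlapping intervals. Its FPKM ratios were 0.228 and 0.0669, which relative to the median gene were 1.03 and 0.279 of the read ratios. The likeness of the lines for Col7a1 thus depended on the scale. The network chain Col8a1 had 87 reads in AFT024 exosomes and 15 in BFC012 exosomes, against 4621 in AFT024 cells and 485 in BFC012 cells, with ratios of 0.11 (0.0878 to 0.136) and 0.0961 (0.0534 to 0.16). Its partner Col8a2 had 233 reads in BFC012 exosomes and 589 in BFC012 cells, with a ratio of 1.23 (1.05 to 1.43). The exosomes of BFC012 thus kept Col8a2 near its level in the cells while Col8a1 was 10.4-fold lower.

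Fibril-associated chains sit on the surface of fibrils. Col12a1 had 73 reads in AFT024 exosomes and 149 in BFC012 exosomes, against 8671 in AFT024 cells and 2066 in BFC012 cells, with ratios of 0.0491 (0.0385 to 0.0618) and 0.224 (0.188 to 0.265). Col16a1 had 103 reads in AFT024 exosomes and 168 in BFC012 exosomes, against 4265 in AFT024 cells and 2870 in BFC012 cells, with ratios of 0.141 (0.115 to 0.171) and 0.182 (0.155 to 0.213). Both were lower in the exosomes of both lines. Col20a1 had 62 reads in AFT024 exosomes and 98 in BFC012 exosomes, against 72 in AFT024 cells and 34 in BFC012 cells, and its ratios of 5.02 (3.52 to 7.16) and 8.96 (6.01 to 13.6) were the highest among the collagen genes with a ratio in each line.

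The multiplexins, whose cleaved ends include endostatin from Col18a1, gave unlike results. Col18a1 had 183 reads in AFT024 exosomes and 295 in BFC012 exosomes, against 3161 in AFT024 cells and 606 in BFC012 cells, with ratios of 0.338 (0.289 to 0.392) in AFT024 and 1.51 (1.31 to 1.74) in BFC012. It was lower in AFT024 exosomes and within 2-fold in BFC012 exosomes. Col15a1 had 0 reads in AFT024 exosomes and 181 in AFT024 cells, which against a floor of 3 reads in the exosomes is at least 10.3-fold lower. Col28a1 had 3 reads in AFT024 exosomes and 69 in AFT024 cells, a ratio of 0.254 (0.0511 to 0.773).

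Taking both lines side by side, 17 collagen genes had a ratio in each, of which 11 were lower in the exosomes of both lines and 2, Col11a2 and Col20a1, higher in both. Intervals lay apart for 11 of the 17, with BFC012 higher for 9 and AFT024 higher for 2, and they overlapped for 6. The widest gaps were those of Col6a3, 6.04-fold higher in BFC012, Col1a1 with 4.76-fold, Col12a1 with 4.56-fold and Col18a1 with 4.48-fold. Across the 17 genes the log2 ratios of the lines, which share no group, had a Spearman correlation of 0.83 and a Pearson correlation of 0.91. Across 11311 genes the Spearman correlation was 0.84, and the points of each line share libraries and scaling. Length and GC content of the transcripts were set against the ratios as a description. The Spearman correlation with length was -0.13 over 22 collagen genes in AFT024 and -0.04 over 20 in BFC012, against 0.16 and 0.21 over all genes. With GC content it was 0.37 and 0.41, against 0.19 and 0.30.

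AFT024 cells were set against BFC012 cells to ask how a supportive and a non-supportive line differ. Of 25 collagen genes with a ratio, 15 were higher and 3 lower in AFT024 cells, where 9.94% of all 12101 genes were higher and 7.58% lower, and the median log2 ratio was 1.19 against -0.01 over all genes. The mesothelial markers given above summed to 94.2 RPM in AFT024 cells and 662 in BFC012 cells, with 1 of the 6 higher and 5 lower in AFT024 cells. The hepatoblast, epithelial and endothelial lists also had lower sums in AFT024 cells, and the endothelial sum was mostly Flt1. The part of these lists was not tested. Between exosomes, 22 collagen genes had a ratio, of which 9 were higher and 4 lower in AFT024, where 14.3% of all 12027 genes were higher and 14.3% lower, with medians of 0.11 and -0.07. These comparisons share groups with those of exosomes against cells.

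**Figure D4:**
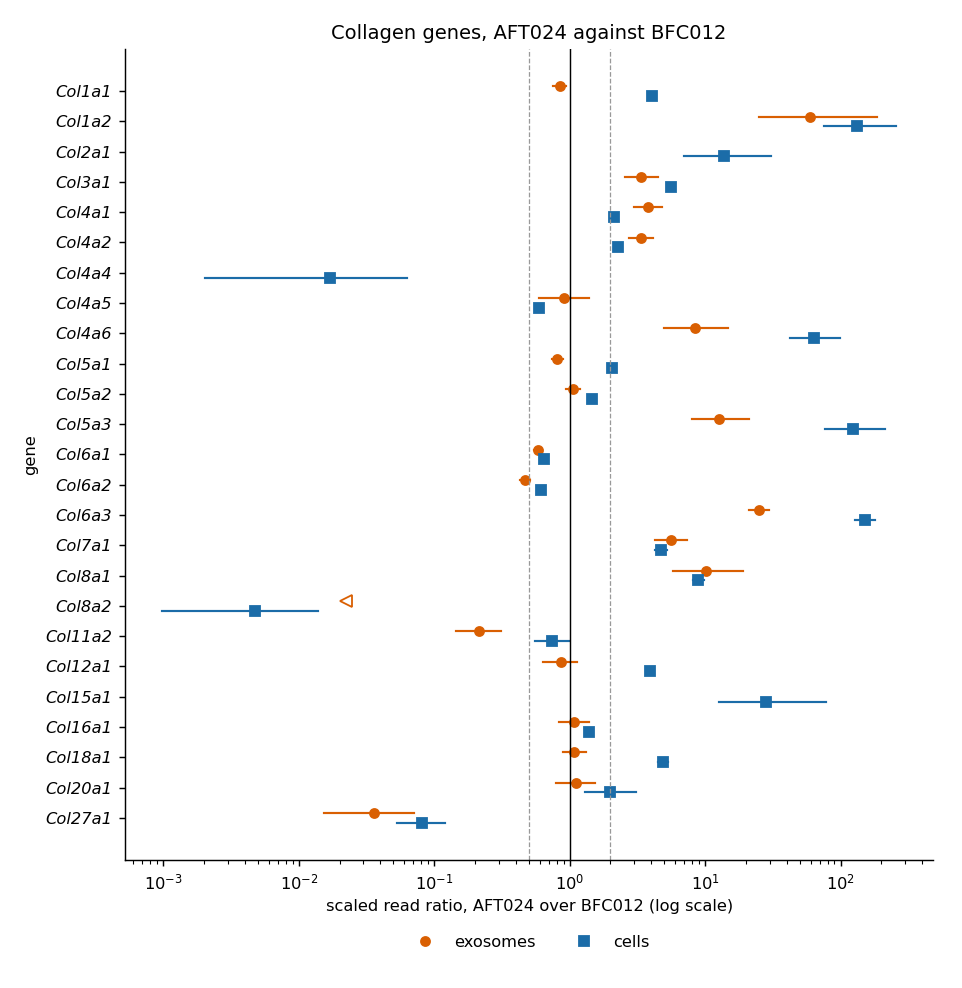
Scaled read ratio of AFT024 over BFC012 (log scale) for the 25 collagen genes with a ratio, in exosomes (circles) and cells (squares), with exact 95% intervals of counting error. The solid line marks a ratio of 1, dashed lines mark 2-fold, and the open triangle is the bound for Col8a2, which had 0 reads in AFT024 exosomes. Col6a3, Col1a2, Col5a3 and Col4a6 lie far to the right in both, and Col8a2 and Col27a1 far to the left.

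A group of 4 chains was near absent from BFC012 cells and present in AFT024 cells, each of them a partner of a chain that both lines expressed. Col6a3 stood at 37.1 FPKM in AFT024 exosomes, 0.576 in BFC012 exosomes, 52.9 in AFT024 cells and 0.371 in BFC012 cells, and its read ratio of AFT024 over BFC012 was 150 (127 to 178) in cells and 24.8 (20.9 to 29.6) in exosomes. Col1a2 stood at 1.58 FPKM in AFT024 exosomes, 0.0535 in BFC012 exosomes, 6.91 in AFT024 cells and 0.0716 in BFC012 cells, with ratios of 133 (76 to 258) in cells and 59.8 (25.1 to 186) in exosomes. Both differences were seen in exosomes as well as in cells. Col5a3 had 153 reads in AFT024 exosomes, 21 in BFC012 exosomes, 2246 in AFT024 cells and 17 in BFC012 cells, with ratios of 123 (76.6 to 211) in cells and 12.7 (8.04 to 21.2) in exosomes. Col4a6 had 86 reads in AFT024 exosomes, 18 in BFC012 exosomes, 1629 in AFT024 cells and 24 in BFC012 cells, with ratios of 63.2 (42.3 to 98.9) in cells and 8.35 (4.98 to 14.8) in exosomes.

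Other chains were higher in AFT024 by smaller folds. Among fibrillar chains, Col1a1 was at 284 FPKM in AFT024 cells against 71.2 in BFC012 cells (read ratio 4.04, 3.97 to 4.1), and Col3a1 at 64.6 and 11.8 FPKM (5.55, 5.33 to 5.77). In exosomes Col1a1 was within 2-fold, with a ratio of 0.848 (0.758 to 0.947), and Col3a1 had 3.36 (2.55 to 4.47), though in FPKM it stood at 1.33 in AFT024 exosomes against 1.21 in BFC012 exosomes, within 2-fold. Col4a1 was at 120 FPKM in AFT024 cells against 57.7 in BFC012 cells, giving a read ratio of 2.11 (2.07 to 2.14), and Col4a2 at 84.3 against 37.1 FPKM, giving a read ratio of 2.28 (2.23 to 2.34), just beyond 2-fold. In exosomes their ratios were 3.79 (3 to 4.82) and 3.35 (2.72 to 4.13), so the type IV pair was higher in AFT024 in both sources. Col8a1 (8.87 in cells, 8.07 to 9.76) and Col7a1 (4.7 in cells, 4.27 to 5.2) were also higher in AFT024 in exosomes, with 10.1 (5.82 to 18.9) and 5.6 (4.29 to 7.37). Col12a1 (3.91, 3.72 to 4.1) and Col18a1 (4.86, 4.45 to 5.3) were higher in AFT024 cells and had ratios of 0.856 (0.638 to 1.14) and 1.08 (0.897 to 1.31) in exosomes, intervals that both held 1. For Col1a1, Col12a1 and Col18a1 the exosomes of the lines were thus closer to each other than the cells were. Col5a1 at 2.05 (1.99 to 2.11) lay at the limit in cells. Col2a1 with 13.7 (6.98 to 30.5) and Col15a1 with 28.1 (12.7 to 77.5) were higher in AFT024 cells at low levels, 132 and 181 reads there against 9 and 6 in BFC012 cells.

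Chains that were lower in AFT024 formed a shorter list. Col8a2 had 0 reads in AFT024 exosomes, 233 in BFC012 exosomes, 3 in AFT024 cells and 589 in BFC012 cells. Its ratio in cells was 0.00474 (0.000975 to 0.0139), and in exosomes it was at least 44.4-fold lower in AFT024 against a floor of 3 reads. Col27a1 had 8 reads in AFT024 exosomes, 389 in BFC012 exosomes, 27 in AFT024 cells and 309 in BFC012 cells, with ratios of 0.0813 (0.0527 to 0.121) in cells and 0.0359 (0.0154 to 0.0715) in exosomes. Col4a4 had 2 reads in AFT024 cells against 109 in BFC012 cells, a ratio of 0.0171 (0.00204 to 0.0632), and Col4a3, which fell under the level filter, had 0 and 52. In exosomes Col11a2, with 0.214 (0.144 to 0.31), and Col6a2, with 0.467 (0.429 to 0.509), were lower in AFT024. Col6a1 was within 2-fold, with 0.583 (0.542 to 0.628) in exosomes and 0.646 (0.638 to 0.654) in cells, as were Col5a2 with 1.05 (0.932 to 1.19) and 1.46 (1.45 to 1.48), and Col16a1 with 1.07 (0.83 to 1.38) and 1.38 (1.32 to 1.45).

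Of the marker genes of the group, Col1a1, Col4a1 and Col5a2 were thus abundant in both kinds of cell, whereas Col6a3 was abundant in AFT024 and listed at 0.371 FPKM in BFC012 cells. Type VI collagen in BFC012 was represented by Col6a1 at 332 FPKM and Col6a2 at 205 FPKM in cells. Of the chains that resemble Col6a3, Col6a4 had 1 read in BFC012 cells, and Col6a5 and Col6a6 had 0.

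Ratios between partner chains were compared in FPKM, since it is per length. Col1a1 over Col1a2 was 2.44 in AFT024 exosomes, 111 in BFC012 exosomes, 41.2 in AFT024 cells and 995 in BFC012 cells, where the usual type I trimer holds both chains. Col6a3 over Col6a1 was 3.23 in AFT024 exosomes, 0.0224 in BFC012 exosomes, 0.249 in AFT024 cells and 0.00112 in BFC012 cells. In AFT024 exosomes the order of these 2 chains turned with the unit: by reads per length of the longest coding transcript, a setting chosen after seeing the data, the ratio was 0.851. By that measure it was 0.0201 in BFC012 exosomes, 0.235 in AFT024 cells and 0.00101 in BFC012 cells, and no other pair compared on both scales changed order. Both ratios differed between lines and between exosomes and cells on either scale. Col6a1 over Col6a2 was 1.41 in AFT024 exosomes, 1.12 in BFC012 exosomes, 1.68 in AFT024 cells and 1.62 in BFC012 cells. Col4a1 over Col4a2 was 0.869 in AFT024 exosomes, 0.795 in BFC012 exosomes, 1.42 in AFT024 cells and 1.55 in BFC012 cells. Both of these pairs stayed within 2-fold of each other in all 4 groups. Col5a2 over Col5a1 was 0.763 in AFT024 exosomes, 0.599 in BFC012 exosomes, 5.24 in AFT024 cells and 7.31 in BFC012 cells, so the order of the type V chains differed between exosomes and cells in both lines. Col8a1 over Col8a2 was 0.0645 in BFC012 exosomes, 1300 in AFT024 cells, from 3 reads of Col8a2, and 0.696 in BFC012 cells, and Col8a2 was listed at 0 in AFT024 exosomes.

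**Figure D5:**
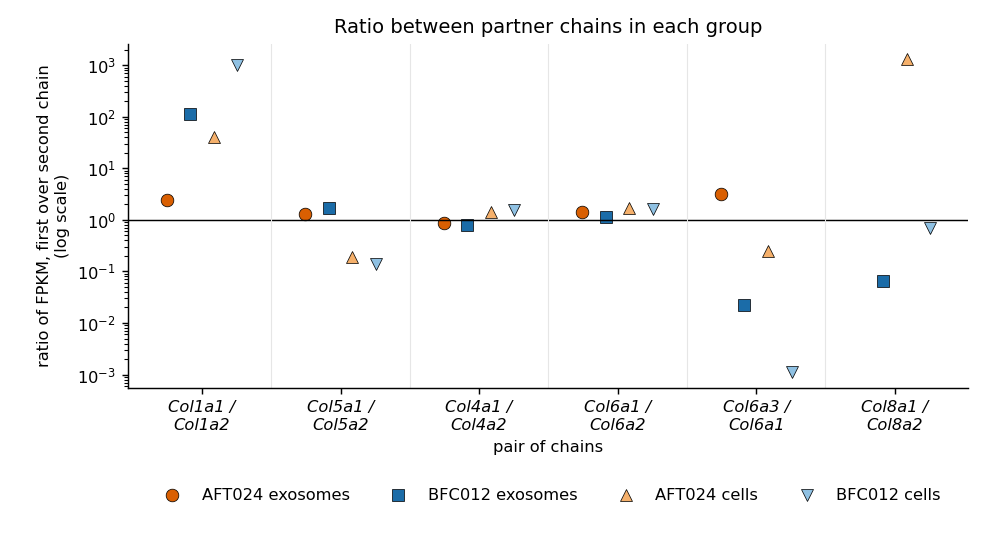
Ratio of FPKM between partner chains (log scale), first gene over second, with 1 point per group (1 merged value each, no error bar) and a line at 1. Col6a1 over Col6a2 and Col4a1 over Col4a2 lie between 0.795 and 1.68 in all groups, while Col1a1 over Col1a2 spans 2.44 to 995. The ratio of Col8a1 over Col8a2 has no point in AFT024 exosomes, where Col8a2 was listed at 0.

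The 6 type IV genes lie as head-to-head neighbours, with the genes of a pair on opposite strands and their starts next to each other (GENCODE annotation of the mouse build GRCm38, which is mm10). Col4a1 (chr8:11198423-11312826, minus strand) and Col4a2 (chr8:11312805-11449287, plus strand) have starts 21 bases apart. The starts of Col4a3 (chr1:82586921-82722059, plus) and Col4a4 (chr1:82448423-82586849, minus) lie 72 bases apart. Those of Col4a5 (chrX:141475385-141689234, plus) and Col4a6 (chrX:141165403-141474076, minus) lie 1309 bases apart. Between the lines, Col4a1 and Col4a2 differed by like amounts, and both Col4a3 and Col4a4 had reads mostly in BFC012 cells. Col4a5 and Col4a6 did not move together, as Col4a5 had 3330 reads in AFT024 cells against 5232 in BFC012 cells (ratio 0.592, 0.567 to 0.619), against a ratio of 63.2 for Col4a6.

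The promoters of the type VI chains and of Col1a2 are shown because partner chains of types VI and I differed between the lines. RefSeq (GRCm38.p6) gives a window before the start for 35 of the 44 genes. The windows of 250 bases below lie just before the RefSeq start, and capitals mark motifs searched on both strands. A CCAAT box was spelled CCAAT, a core promoter TATA box was spelled TATAAA, and a GC box, which binds Sp factors, was spelled GGGCGG. The windows are Col6a1 (chr10:76726045-76726294, minus strand), Col6a2 (chr10:76623631-76623880, minus), Col6a3 (chr1:90843972-90844221, minus) and Col1a2 (chr6:4505368-4505617, plus), each printed along the strand of its gene. RefSeq gives 2 windows for Col6a2, and the one shown ends at the deposited locus. The window of Col1a2 lies inside its deposited locus, which starts at chr6:4504814. That of Col6a1 overlaps its deposited locus, which ends at chr10:76726168.
Col6a1: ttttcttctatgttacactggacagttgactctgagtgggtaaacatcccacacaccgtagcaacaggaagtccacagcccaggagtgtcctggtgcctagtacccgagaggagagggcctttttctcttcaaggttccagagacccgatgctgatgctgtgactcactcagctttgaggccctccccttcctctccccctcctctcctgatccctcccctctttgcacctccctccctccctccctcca
Col6a2: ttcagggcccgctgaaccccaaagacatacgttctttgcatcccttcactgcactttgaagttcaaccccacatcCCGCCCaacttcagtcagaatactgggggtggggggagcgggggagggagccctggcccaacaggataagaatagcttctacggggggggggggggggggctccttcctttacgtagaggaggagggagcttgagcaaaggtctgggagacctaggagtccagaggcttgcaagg
Col6a3: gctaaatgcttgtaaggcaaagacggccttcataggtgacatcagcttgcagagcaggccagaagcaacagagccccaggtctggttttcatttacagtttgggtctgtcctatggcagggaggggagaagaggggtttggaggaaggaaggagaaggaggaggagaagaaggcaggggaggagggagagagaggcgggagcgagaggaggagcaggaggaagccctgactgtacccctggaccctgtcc
Col1a2: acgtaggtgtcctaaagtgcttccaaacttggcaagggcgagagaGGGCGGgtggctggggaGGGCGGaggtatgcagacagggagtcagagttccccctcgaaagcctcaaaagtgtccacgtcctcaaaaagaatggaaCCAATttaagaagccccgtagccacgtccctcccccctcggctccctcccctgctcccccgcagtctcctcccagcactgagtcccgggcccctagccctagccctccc

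The window of Col6a3 held 3 CpG pairs, as did that of Col6a1, against 6 for the window shown of Col6a2, whose other window held 14, and 11 for Col1a2. Col6a1 and Col6a3 held none of the motifs, Col6a2 had 1 GC box, and Col1a2 had 2 GC boxes and 1 CCAAT box. A CCAAT box on either strand was found in 13 of 35 collagen genes (37.1%) and in 33.8% of 32851 windows, a TATA box in 5 (14.3%) and 12.4%, and a GC box in 21 (60%) and 32.7%. A collagen gene was counted when any of its windows matched, while the other shares are per window. The 38 collagen windows had medians of 59% GC and 9.5 CpG pairs, against 52.4% and 6 over all windows. The part of this composition in the matches was not tested. Matches are descriptions of letters and not of binding.

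Collagen chains are hydroxylated, folded, exported and trimmed by a set of enzymes and chaperones, whose mRNAs were followed by lists. Their counts stand beside the shares of all genes given above, 21.3% higher and 27.9% lower in AFT024 exosomes, 23% and 26.5% in BFC012 exosomes, and 9.94% and 7.58% in AFT024 cells against BFC012 cells. Of 13 prolyl and lysyl hydroxylases and collagen glycosyltransferases, 12 had a ratio, and in AFT024 exosomes 0 were higher and 11 lower than in AFT024 cells, with 0 higher and 9 lower in BFC012. The median log2 ratios were -1.85 and -1.25. P4hb, the shared subunit of prolyl 4-hydroxylase, had 2963 reads in AFT024 exosomes and 4379 in BFC012 exosomes, against 42951 in AFT024 cells and 33284 in BFC012 cells, with ratios of 0.402 (0.388 to 0.418) and 0.409 (0.396 to 0.422). Of 11 folding and export genes with a ratio, 1 was higher and 8 lower in AFT024 exosomes, and 1 higher and 6 lower in BFC012 exosomes. Serpinh1, the collagen chaperone HSP47, was lower in both, with ratios of 0.12 (0.11 to 0.13) in AFT024 and 0.148 (0.138 to 0.157) in BFC012. The gene that was higher in both was Klhl12, an adaptor for collagen export from the endoplasmic reticulum, with ratios of 6.47 (6.06 to 6.9) and 9.02 (8.47 to 9.61).

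Of the genes that trim procollagen and cross-link fibrils, 11 had a ratio in each line, with 0 higher and 10 lower in AFT024 exosomes, and 1 higher and 6 lower in BFC012 exosomes. Lox, a lysyl oxidase that cross-links collagen, had ratios of 0.0821 (0.074 to 0.0909) and 0.183 (0.175 to 0.192). Between the cells, 5 of 12 were higher and 1 lower in AFT024, among them Loxl1, named after its values were seen, with 13.4 (12.3 to 14.6), while Lox had 0.719 (0.707 to 0.73). The hydroxylase list had 1 higher and 1 lower of 12 and the folding list 0 of 11 in either direction, with median log2 ratios of 0.15 and -0.20, where that of the chains was 1.19. Of the small proteoglycans and glycoproteins that coat fibrils, 9 had a ratio in AFT024, with 1 higher and 8 lower in exosomes, and 8 in BFC012, with 0 higher and 6 lower. Sparc, a collagen-binding glycoprotein, had ratios of 0.0642 (0.0604 to 0.0682) in AFT024 and 0.103 (0.0982 to 0.108) in BFC012.

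Of the collagen receptors with a ratio, 2 of 5 were higher and 3 lower in AFT024 exosomes, and 2 of 6 were higher and 2 lower in BFC012 exosomes, lists too short to set against the shares of all genes. Ddr2, a receptor tyrosine kinase for fibrillar collagen, had 31740 reads in AFT024 exosomes and 17373 in BFC012 exosomes, against 14866 in AFT024 cells and 7504 in BFC012 cells. Its ratios of 12.5 (12.2 to 12.7) and 7.19 (7 to 7.39) lay on the opposite side from those of its ligands Col1a1 and Col3a1. Itgb1, the shared beta subunit of the collagen-binding integrins, had ratios of 0.114 (0.106 to 0.122) and 0.103 (0.0973 to 0.108).

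The FPKM and read scales differed for some chains. Relative to the median gene, the FPKM ratio of AFT024 exosomes over cells exceeded the read ratio 3.57-fold for Col6a3. It did so 3.38-fold for Col12a1 and 3.38-fold for Col16a1. The size of these ratios thus depends on the scale, and for Col6a3 also the side of the median gene on which it lies. For AFT024 over BFC012 cells, the FPKM ratio relative to the median gene was 0.272 of the read ratio for Col7a1 and 0.353 for Col18a1. Their FPKM ratios were 1.27 and 1.7. In BFC012, Col18a1 stood at 2.25 FPKM in exosomes and 7.98 in cells, a ratio of 0.283, against a read ratio of 1.51. Col20a1 was listed at 0 FPKM in BFC012 exosomes and BFC012 cells although it had 98 and 34 reads there, and Col26a1 was listed at 0.851 to 1.71 FPKM with 1 to 6 reads. For Col1a1, Col4a1, Col5a2 and Col6a1 both scales gave ratios within 2% of each other relative to the median gene in all 4 comparisons.

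The remaining members were low. No reads were found in any group for Col6a6, Col13a1 and Col25a1, and at most 3 reads in every group for Col6a5, Col9a1, Col9a2 and Col19a1. Col9a3, Col10a1, Col11a1, Col14a1, Col17a1, Col22a1, Col23a1, Col24a1 and Col26a1, with Col4a3 and Col6a4, had between 0 and 58 reads each and no ratio at 1 RPM. The highest of these counts was that of Col11a1 in BFC012 cells. In all, 26 genes had a ratio in at least 1 comparison and 17 in all 4. In the annotation 12 members share exonic bases with another gene, and for those with a ratio the share was at most 2.5% of exonic bases, for Col5a1.

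In the authors' deposited tables, whose q-values come from a Fisher test on merged reads and hold no spread between replicates, 23 of 30 listed collagen genes had q under 0.05 for AFT024 exosomes against cells and 21 of 44 for BFC012 exosomes against cells. Between the lines it was 31 of 44 in cells and 15 of 44 in exosomes. The shares of all listed genes were 67.4%, 26%, 23.2% and 19.5% in the same order. The first comparison listed only the 16224 genes with reads in both groups, and each other comparison listed 43629 genes. Its shares therefore cannot be set against the rest.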

How the data were processed

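The members, the gene lists and the comparisons were chosen with earlier results of these data known. PolyA RNA was sequenced from the exosomes and cells of 2 lines, per the labels' protocols with oligo-dT purification. Bowtie, TopHat, Cufflinks and the build mm10 are named in the submitters' processing notes. The read counter and the release of the annotation are not stated in the sources used here. The authors deposited FPKM for 24544 genes (0 of them on chromosome X) and, in pairwise tables, reads divided by a size factor, with log2 ratios, p-values and q-values of their Fisher test, per the file headers.

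Whole reads were recovered by dividing each deposited column by its smallest step (100% whole within 0.01 reads), and 2 rows with no gene ID were left out. Median-of-ratios size factors were set over the 4 polyA groups, and exact Clopper-Pearson intervals were taken from how a gene's reads split between the pair. Genes with an average of 1 RPM in the pair were kept, and a fold against 0 reads used a floor of 3 reads per group. The ratios were tested on simulated reads for the pair of AFT024 and BFC012 cells only, with counting error alone and few genes changed. Ratios of exosomes over cells, where many genes were called, were not tested in this way. Alternatives were other scalings, filters, the whole interval beyond 2-fold, and FPKM plus 1 or plus 0.1. FPKM relative to the median gene, and reads per length between partner chains, were added after seeing the data. Named were chains at 10 FPKM or more, the 5 highest and 5 lowest ratios of each comparison, partner chains, and up to 4 genes per list by mean RPM. Small RNA tables were not used here. Python 3.11.15, numpy 2.4.6, pandas 2.3.3, scipy 1.17.1 and matplotlib 3.10.9 were used.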

Additional observations from a re-analysis of the deposited data

Results flagged for a closer look

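By read ratio, the exosomes stood on opposite sides of the cells in the 2 lines for 2 collagen genes. This difference was not tested, since each group holds 1 merged value. The read ratio of exosomes over cells was 0.503 in AFT024 and 3.04 in BFC012 for Col6a3, which had 141 reads in BFC012 exosomes and 144 in BFC012 cells. It was 0.338 in AFT024 and 1.51 in BFC012 for Col18a1. For Col18a1 in BFC012 the FPKM ratio was 0.283, so its side depended on the unit. For Col6a3 in AFT024 the FPKM ratio was 0.702. Its log2 ratio with FPKM plus 1 was -0.50, above the median of -1.30 over all genes on that scale. The side of the median gene on which Col6a3 lay in AFT024 thus also depended on the unit.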

How the results depend on the processing

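Counts are collagen genes called at 2-fold, as given in the report unless stated. For AFT024 exosomes against cells, the 2 higher genes of 23 became 1 with library size scaling, with TMM scaling or when the whole interval had to pass 2-fold. Of all 12082 genes, 1833, 2270 and 2106 were higher in these settings. The 2 became 0 with a filter of 5 RPM or on the FPKM scale (plus 1, plus 0.1, or plus 1 relative to the median gene). Both genes, Col11a2 and Col20a1, averaged under 5 RPM and under the 1 FPKM that these settings asked for. Their ratios were thus not judged there. Without the level filter, Col11a2 had log2 ratios of -0.03 (plus 1) and -0.12 (plus 0.1), and Col20a1 0.51 and 1.23. On these scales the median of all genes that passed the filter was -1.30 and -1.56. The 18 lower genes became 11 of 17 relative to the median gene, where 2735 of all 13266 genes were lower. For BFC012 exosomes against cells, the 4 higher genes became 9 of 34 with no filter beyond more than 3 reads. In that setting 4083 of all 16282 genes were higher. The 4 became 0 of 17 with FPKM plus 1 and 1 with plus 0.1, where 1140 and 1325 of all 13276 genes were higher. Relative to the median gene, 2 of the 17 were higher and the 13 lower became 8. There 3061 of all 13276 genes were higher and 2917 lower. For AFT024 against BFC012 cells, the 15 higher became 9 of 18 with FPKM plus 1, where 1038 of all 13705 genes were higher. The 3 lower became 7 of 36 without the filter, where 2082 of all 17114 genes were lower. At 5 RPM the 3 became 1 of 19, where 533 of all 10195 genes were lower. In all FPKM settings the 3 became 1 of 18, where 772 to 986 of all 13705 genes were lower. For AFT024 against BFC012 exosomes, the 9 higher became 1 of 14 with FPKM plus 1, where 963 of all 12151 genes were higher. The 9 became 3 with plus 0.1 or relative to the median gene, where 1165 and 1480 of all genes were higher. The 4 lower became 2 relative to the median gene, where 1147 of all genes were lower. The FPKM settings tested 14 to 18 of the genes, those that averaged 1 FPKM or more in the pair. Calls of genes under that level were thus lost whatever their ratio, and the cause of the other moves was not tested. As a share of summed FPKM, collagens took 0.0119% in AFT024 exosomes, 0.0142% in BFC012 exosomes, 0.144% in AFT024 cells and 0.104% in BFC012 cells. Between exosomes this share was lower in AFT024, the other way from the share of reads. Among genes with FPKM they took 0.913% of reads in AFT024 cells. Single gene ratios were not taken relative to the median gene. Of 346 gene ratios under another scaling or with FPKM plus 1 or plus 0.1, 11 changed sign: the 2 of Col11a2 given above and 9 of ratios within 2-fold. The 9 were, for BFC012 exosomes against cells, Col18a1 with -1.46 (FPKM plus 1) and -1.78 (plus 0.1) and Col8a2 with -0.20 (library size), -0.49 and -0.66, and between exosomes Col18a1 with -0.23 and -0.33 and Col5a2 with -0.24 and -0.30. For BFC012 exosomes against cells, the median of all genes was -0.95 with FPKM plus 1 and -1.11 with plus 0.1. Between exosomes it was -0.32 and -0.39. The log2 ratio of Col6a3 over Col6a1 in AFT024 exosomes turned to -0.23 by reads per length. The median log2 ratio of the collagen genes stayed under 0 for exosomes against cells, between -3.82 and -1.76 in AFT024 and between -3.15 and -0.71 in BFC012, where -0.71 came without the filter (34 genes) and -0.90 relative to the median gene. It lay between 1.01 and 1.97 between cells, and between exosomes it turned to -0.23 with FPKM plus 1 and -0.31 with plus 0.1. No paired analysis was possible because each group holds 1 merged value. Exosome depth limits chains under 0.332 RPM in AFT024 exosomes and 0.184 RPM in BFC012 exosomes.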
